A study of Caenorhabditis elegans with 21 samples.

Results

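The 7 autophagy genes followed here through an mRNA survey of stressed C. elegans were sqst-1, lgg-1, lgg-2, bec-1, unc-51, atg-9 and atg-18. They were taken by symbol, as 1 cargo receptor beside 6 genes of the machinery that builds autophagosomes. They are 7 of the 46254 gene IDs measured and 7 of the 17492 genes with enough signal to test, which were those at or above 1 FPKM in at least 3 libraries. FPKM counts sequenced fragments relative to transcript length and to all mapped fragments of a library, so levels can be set beside each other between genes. All 147 values of the 7 genes were above 0.

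Macroautophagy wraps cytoplasm in a membrane that closes and fuses with the lysosome, where the contents are degraded. The UNC-51 kinase complex starts the process, a lipid kinase complex holding BEC-1 marks the forming membrane, ATG-9 vesicles and the lipid-binding ATG-18 help it to grow, and the ubiquitin-like proteins LGG-1 and LGG-2 are attached to it. SQST-1, the worm counterpart of mammalian SQSTM1, binds ubiquitinated cargo, is itself degraded along with it, and accumulates as protein when autophagy is blocked. Autophagy and the proteasome are the main routes by which a cell disposes of damaged proteins. The measurements here are of mRNA, and neither protein nor autophagic flux was measured.

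The worms were wild type (strain N2), raised at 20 °C on E. coli OP50 and harvested whole on day 1 of adulthood, with 3 libraries in each of 7 groups. The control worms received no treatment, and no group with drug vehicle or an empty RNAi vector is named in the labels. Starved worms spent the 15 h before harvest on plates without food. Worms moved at the L4 larval stage to drug plates until the next day received 200 µM fluphenazine, an antipsychotic drug of the phenothiazine class, 200 µM cantharidin, an inhibitor of protein phosphatases, or 10 µM or 25 µM bortezomib, an inhibitor of the proteasome. The remaining group was fed from the L3 stage on bacteria for RNAi of rpn-6, a gene for a subunit of the proteasome's regulatory particle, so its exposure was longer than that of the drug groups. The labels do not say that libraries of a group came from separate cultures, and p-values then measure only the spread between these libraries.

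Summed FPKM ran from 938941 to 1036350 per library. The deposited table holds no read totals, and relative depth, read from the steps that whole fragments leave in low values, lay between 0.944 and 1.50 times that of control 4. The libraries that stood apart from their groups were 3: control 7, fluphenazine 4 and starvation 3 correlated with the other libraries of their group at a mean r of 0.938, 0.891 and 0.843. The target of the RNAi, listed as rpn-6.1, was at 168, 168 and 130.2 FPKM in the controls and at 115, 122 and 127 FPKM in the RNAi libraries. All 3 RNAi libraries lay below all 3 controls, but the change of −0.35 ± 0.14 (log2, SE) missed the threshold with an adjusted p of 0.0553, and the starvation libraries were as low, at 112 to 122 FPKM. Fluphenazine and cantharidin had means of 121.6 and 120.9 FPKM, beside 121.2 FPKM under the RNAi, though their ranges overlapped the controls. With 10 µM and 25 µM bortezomib the means were above the controls, at 217.6 and 216.6 FPKM. The RNAi change passed with median-of-ratios scaling, at −0.71 (adjusted p = 0.00406), and with quantile normalization, at −0.43 (adjusted p = 0.024). Rescaled values of this gene in the other treatments are not given here. All changes below are differences of group means on the log2(FPKM + 1) scale ± SE from limma, which understates changes at low levels. P-values are adjusted by Benjamini-Hochberg over all 17492 tested genes and called below 0.05.

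The mRNA of sqst-1 (WBGene00011737) was higher under all 6 treatments. Its level was 16.02, 20.5 and 26.1 FPKM in the controls, in the order of control 4, 6 and 7, which is kept for all controls below, while treated libraries are listed from low to high. It was 93.7, 95.4 and 129 FPKM in the starved worms, 100.3, 127 and 136 FPKM under fluphenazine and 151, 179 and 194 FPKM under cantharidin. It reached 206, 218 and 259.6 FPKM under rpn-6 RNAi, and stood at 53.4, 55.3 and 58.6 FPKM with 10 µM and 146, 147 and 161 FPKM with 25 µM bortezomib. No treated library overlapped the controls, the lowest treated library being above the highest control by more than the range of the controls. Within the groups sqst-1 was most even under 10 µM bortezomib and most uneven, relative to its mean, in the controls.

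**Figure D1:**
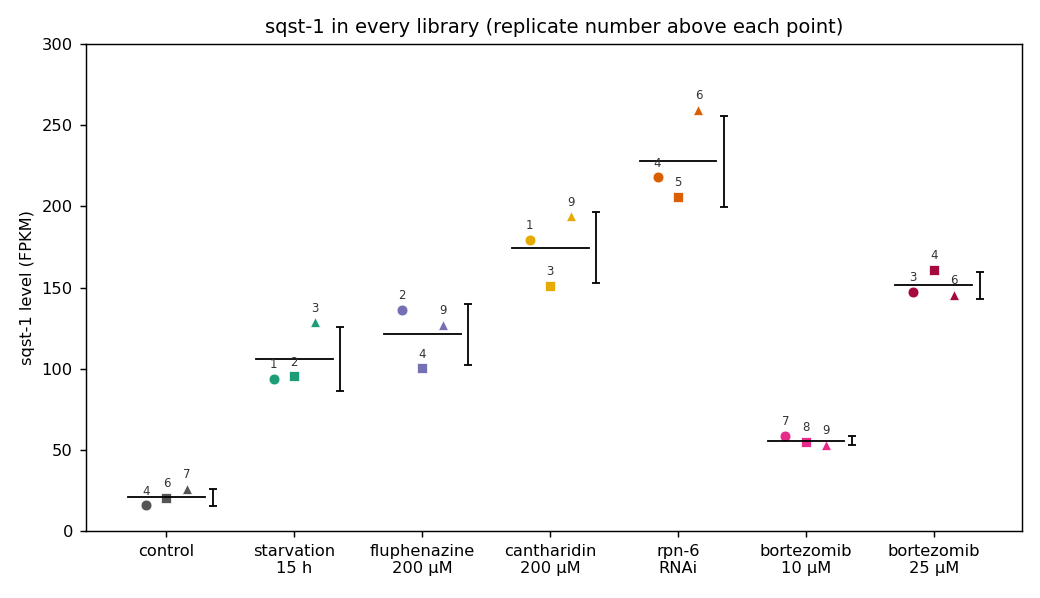
FPKM of sqst-1 (y axis, linear from 0) in each of the 21 libraries, by group (x axis); points are libraries with their replicate number, horizontal lines the group mean and the bracket beside it ±1 SD, n = 3. The controls lie between 16.02 and 26.1 FPKM, the rpn-6 RNAi libraries between 206 and 259.6 FPKM, and 10 µM bortezomib lies lowest among the treatments.

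The rise of sqst-1 over control was 3.41 ± 0.17 under rpn-6 RNAi (adjusted p = 9e-11), which is 10.6-fold on this scale. It was 3.02 ± 0.17 under cantharidin (adjusted p = 5.47e-09) and 2.82 ± 0.17 under 25 µM bortezomib (adjusted p = 1.15e-09). Fluphenazine gave 2.50 ± 0.17 (adjusted p = 1.67e-08), starvation 2.30 ± 0.17 (adjusted p = 2.78e-08) and 10 µM bortezomib 1.40 ± 0.17 (adjusted p = 3.04e-05). These 6 calls held under each scaling of the libraries that was tried and with any 1 library left out. Ordered by mean level the groups ran from rpn-6 RNAi through cantharidin, 25 µM bortezomib, fluphenazine and starvation to 10 µM bortezomib and control. Neighbours among the first 5 of that order did not pass the test, with adjusted p from 0.102 to 0.577, whereas starvation exceeded 10 µM bortezomib by 0.90 ± 0.17 (adjusted p = 0.000346).

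Relative to other mRNAs, sqst-1 moved from between the 60.0th and 66.6th percentile of tested genes in the controls to between the 95.5th and 96.7th under rpn-6 RNAi. Ranked by its change among the 17492 tested genes it was number 244 from the top under cantharidin and 293 under rpn-6 RNAi, but 1174 under 10 µM bortezomib. Other genes thus rose by more in every comparison.

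Worms of the treated groups also differed in tissue markers, and in whole-animal RNA fewer cells of a type and less RNA per cell cannot be told apart. The mean log2 level of 12 oocyte markers lay between 1.42 and 4.85 below the control mean in the starved libraries, from −2.44 to 0.06 relative to it under fluphenazine and between 0.75 and 1.53 below it with 25 µM bortezomib. The 8 intestinal markers lay between 0.98 and 1.47 below under rpn-6 RNAi, and the 8 neuronal markers between 0.75 and 1.23 above in starved worms. The same 3 lists lay, with 10 µM bortezomib, between 0.05 and 0.19 above the control mean, while 6 body muscle markers lay between 0.39 and 0.42 below it and 6 epidermal markers between 0.13 and 0.85 below. The summed FPKM of the intestinal markers, however, was lower there, at 3184 to 3603, than in the controls, at 4994 to 5819. That of the neuronal markers lay above the controls and that of the oocyte markers within their range. The epidermal markers ran from −0.76 to 1.47 in the controls themselves. They lay above the control mean by 1.38 to 4.18 in starvation, 0.69 to 4.07 under fluphenazine and 1.65 to 3.27 under cantharidin. Under rpn-6 RNAi they lay 1.42 to 1.94 above it, and with 25 µM bortezomib 1.88 to 2.05. Sperm markers ran from −2.81 to 1.36 in starvation and from −0.58 to 0.99 in the controls. None of the 55 markers in the table was at 0 in every library, and the part of tissue makeup in the changes of the 7 genes was not tested.

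Of the machinery genes the ubiquitin-like lgg-1 was the most abundant, while lgg-2 and atg-18 were alike in the controls, at means of 108.8 and 109.0 FPKM. lgg-1 (WBGene00002980), the worm counterpart of GABARAP and needed for autophagosome formation, was at 490.1, 473 and 396 FPKM in the controls. It stood at 936, 1023 and 1041 FPKM in starved worms, 870.0, 942 and 949 FPKM under fluphenazine and 778, 824 and 827 FPKM under cantharidin. Under rpn-6 RNAi it was at 792, 834 and 876 FPKM, with 10 µM bortezomib at 525, 537 and 548 FPKM, and with 25 µM at 1037, 1037 and 1057 FPKM. No treated library overlapped the controls, though 10 µM bortezomib came close to them. The rise was 1.21 ± 0.08 with 25 µM bortezomib (adjusted p = 2.26e-09), 1.15 ± 0.08 in starvation (adjusted p = 1.08e-08) and 1.03 ± 0.08 under fluphenazine (adjusted p = 4.71e-08). It was 0.88 ± 0.08 under rpn-6 RNAi (adjusted p = 7.78e-08) and 0.84 ± 0.08 under cantharidin (adjusted p = 3.92e-07). The small rise of 0.25 ± 0.08 with 10 µM bortezomib (adjusted p = 0.0381) was the weakest: its adjusted p lost the threshold without control 7 or without any 1 of the bortezomib libraries, and it turned to −0.02 with median-of-ratios scaling.

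lgg-2 (WBGene00002981), the counterpart of LC3, was highest in starved worms. It was at 109.9, 118 and 98.8 FPKM in the controls, 288, 297 and 305 FPKM in starvation and 264, 268 and 269 FPKM under fluphenazine. Cantharidin gave 199, 200.1 and 227 FPKM and rpn-6 RNAi 174, 176 and 186 FPKM. Bortezomib gave 132, 135 and 139.7 FPKM at 10 µM and 170.0, 189 and 198 FPKM at 25 µM. The starvation and fluphenazine libraries lay above every other library, and all treated libraries lay above the controls. The rise was 1.44 ± 0.07 in starvation (adjusted p = 1.08e-09) and 1.29 ± 0.07 under fluphenazine (adjusted p = 3.82e-09). Between starvation and rpn-6 RNAi lgg-2 differed by 0.73 ± 0.07 (adjusted p = 8.22e-07), and between starvation and 25 µM bortezomib by 0.67 ± 0.07 (adjusted p = 2.62e-06), starvation being the higher in both. With 10 µM bortezomib the rise of 0.32 ± 0.07 (adjusted p = 0.0107) fell to 0.05 with median-of-ratios scaling (adjusted p = 0.87) and its call was lost without bortezomib library 7.

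unc-51 (WBGene00006786), which encodes the kinase that starts autophagosome formation and is also needed for axon growth, was likewise highest in starvation and under fluphenazine. It was at 16.7, 18.4 and 19.8 FPKM in the controls, 42.4, 42.9 and 47.7 FPKM in starvation and 42.9, 44.9 and 45.9 FPKM under fluphenazine. It was at 34.5, 38.9 and 41.2 FPKM under cantharidin, 30.5, 30.6 and 32.4 FPKM under rpn-6 RNAi, 24.0, 24.2 and 25.6 FPKM with 10 µM and 30.6, 30.99 and 32.9 FPKM with 25 µM bortezomib. The starvation and fluphenazine libraries overlapped each other, and they did not overlap those of rpn-6 RNAi or bortezomib. The rise was 1.24 ± 0.09 under fluphenazine (adjusted p = 2.43e-08), 1.23 ± 0.09 in starvation (adjusted p = 1.95e-08) and 1.02 ± 0.09 under cantharidin (adjusted p = 2.18e-07). It was 0.75 ± 0.09 with 25 µM bortezomib (adjusted p = 2.2e-06), where quantile normalization lowered it to 0.14 (adjusted p = 0.238), and 0.74 ± 0.09 under rpn-6 RNAi (adjusted p = 2.76e-06). At the 10 µM dose it was 0.41 ± 0.09 (adjusted p = 0.00478), which median-of-ratios scaling lowered to 0.15 (adjusted p = 0.385). Neuronal markers were also raised under every treatment but 10 µM bortezomib, by 0.36 to 1.15 under fluphenazine and 0.37 to 0.65 under rpn-6 RNAi. With 10 µM bortezomib, where unc-51 was called higher, they lay between 0.05 and 0.19, within the control range of −0.13 to 0.19. The part of these markers was not tested.

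bec-1 (WBGene00000247), the counterpart of Beclin 1 in the lipid kinase complex, had another order, with the proteasome treatments on top. Its controls were at 36.03, 34.7 and 26.1 FPKM and its starved libraries at 28.6, 37.0 and 44.8 FPKM, which overlapped them. It was at 40.1, 42.9 and 47.9 FPKM under fluphenazine and 47.8, 48.5 and 50.5 FPKM under cantharidin, just above the controls. It was at 110.3, 119 and 126 FPKM under rpn-6 RNAi, 63.4, 64.5 and 67.3 FPKM with 10 µM and 74.1, 75.9 and 79.5 FPKM with 25 µM bortezomib. Every rpn-6 RNAi or bortezomib library thus lay above every other library. The rise was 1.86 ± 0.14 under rpn-6 RNAi (adjusted p = 1.26e-08), 1.23 ± 0.14 with 25 µM (adjusted p = 1.64e-06) and 1.00 ± 0.14 with 10 µM bortezomib (adjusted p = 0.000124). Against starvation, rpn-6 RNAi was higher by 1.68 ± 0.14 (adjusted p = 4.61e-08), 25 µM bortezomib by 1.06 ± 0.14 (adjusted p = 1.33e-05) and 10 µM by 0.83 ± 0.14 (adjusted p = 0.000132).

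In starvation bec-1 differed from control by 0.17 ± 0.14 (95% interval −0.11 to 0.46, adjusted p = 0.275), and leaving out starvation 1 brought it to 0.34 and past the threshold. The rises of 0.43 ± 0.14 under fluphenazine (adjusted p = 0.0181) and 0.60 ± 0.14 under cantharidin (adjusted p = 0.00272) were both lost with median-of-ratios scaling, at 0.04 and 0.20, and the former also without control 7, at 0.29 (adjusted p = 0.071). A non-coding gene on the opposite strand, T19E7.24, overlaps bec-1 and reached at most 2.60 FPKM. The library kit marks strand, but whether the authors' counting used it is not given.

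atg-9 (WBGene00020706), a transmembrane protein of the vesicles that seed the autophagosome, varied most, relative to its mean, within the controls. It was at 23.7, 26.3 and 16.7 FPKM there, at 33.8, 36.2 and 38.3 FPKM in starvation and at 30.7, 32.4 and 44.0 FPKM under fluphenazine. In the other 4 groups all libraries lay between 26.8 and 32.3 FPKM. All treated libraries were above all controls, by a margin as small as that between 26.3 and 26.8 FPKM. The rise was called in starvation at 0.70 ± 0.14 (adjusted p = 0.000891), fluphenazine at 0.67 ± 0.14 (adjusted p = 0.00177), 25 µM bortezomib at 0.50 ± 0.14 (adjusted p = 0.00815), rpn-6 RNAi at 0.47 ± 0.14 (adjusted p = 0.0171) and cantharidin at 0.41 ± 0.14 (adjusted p = 0.0359). It missed the threshold with 10 µM bortezomib, at 0.43 ± 0.14 (adjusted p = 0.0589). All 5 calls were lost with median-of-ratios scaling, where the changes were 0.02 to 0.36, and with quantile normalization the value at 25 µM bortezomib was −0.04. Without control 7 the rpn-6 RNAi and cantharidin calls were lost, and a block by replicate number left 0.28 (adjusted p = 0.284) under rpn-6 RNAi and 0.44 (adjusted p = 0.0597) with 25 µM bortezomib. Between treatments atg-9 passed the limma test in 0 of 15 pairs, and in 0 at an unadjusted p below 0.05.

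atg-18 (WBGene00018294), which binds the lipid made by the kinase complex, was called in the fewest treatments against control, 1 of 6. Its controls were at 122, 122 and 83.3 FPKM, control 7 being the low one. Starvation gave 113, 117 and 119.8 FPKM, fluphenazine 110.7, 117 and 150.2 FPKM and cantharidin 115, 126 and 136 FPKM, all overlapping the controls. Only rpn-6 RNAi, at 159, 162 and 170.3 FPKM, passed the test, with a rise of 0.60 ± 0.13 (adjusted p = 0.00119). That call was lost with median-of-ratios scaling, at 0.24 (adjusted p = 0.323), and with the replicate block, at 0.43 (adjusted p = 0.0755). With 10 µM and 25 µM bortezomib atg-18 lay between 127 and 137 FPKM, above the controls, but the changes of 0.33 ± 0.13 (adjusted p = 0.0981) and 0.28 ± 0.13 (adjusted p = 0.0712) were not called. The latter passed the threshold without control 4 or control 6.

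**Figure D2:**
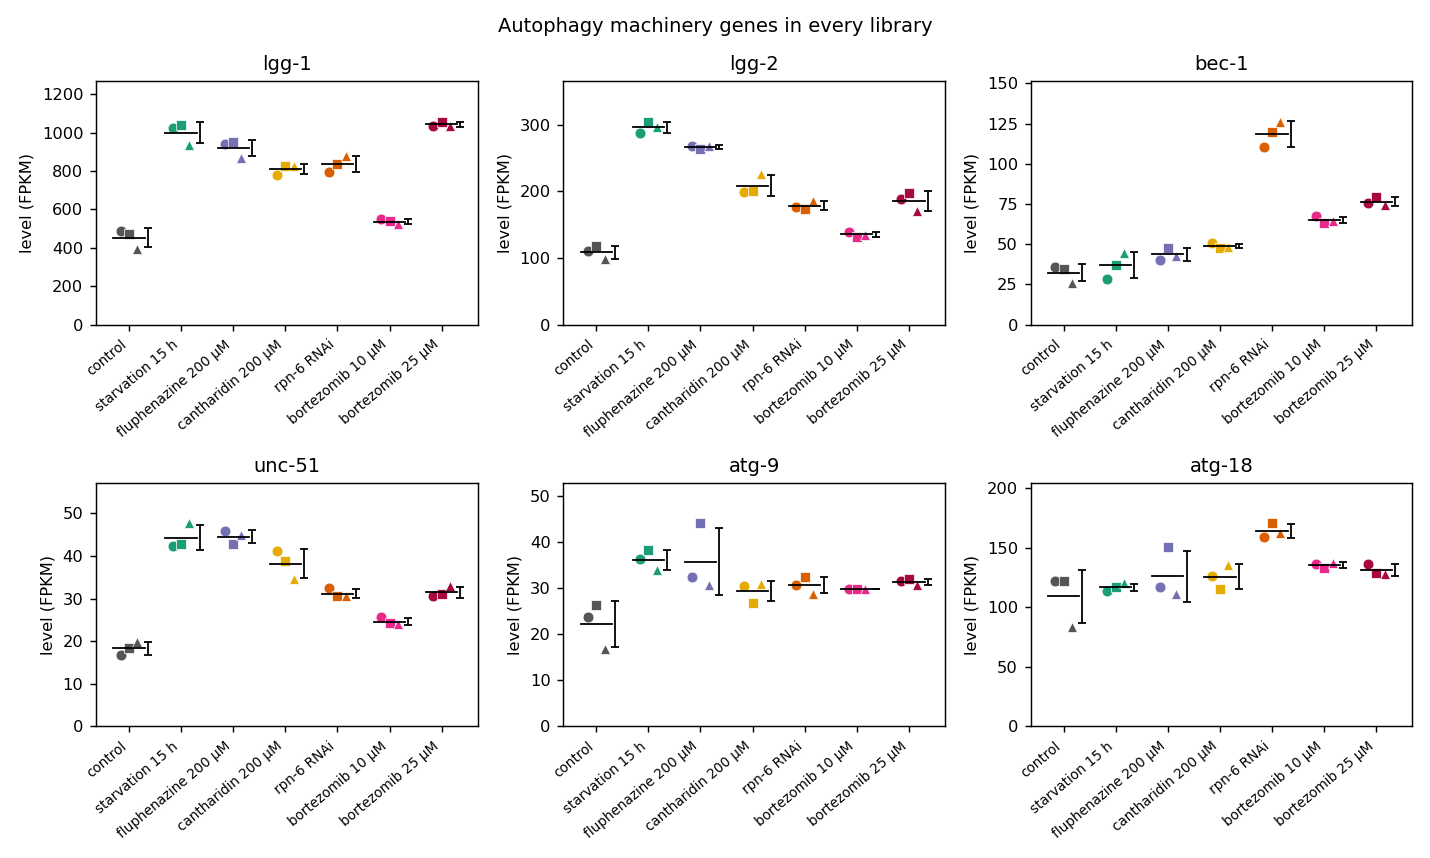
FPKM of the 6 machinery genes (y axes, linear from 0, 1 panel per gene) in each library by group (x axis); points are libraries, horizontal lines the group mean and brackets ±1 SD, n = 3. lgg-2 and unc-51 are highest in starvation and fluphenazine, bec-1 is highest in rpn-6 RNAi, at 110.3 to 126 FPKM, and atg-18 is highest in rpn-6 RNAi, at 159 to 170.3 FPKM.

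Counted by treatment, the calls among the 7 genes were all in the upward direction. In starvation 5 of 7 were higher, where 39.1% of all tested genes were called higher and 57.5% in either direction. Under fluphenazine 6 of 7 were higher (all tested genes 34.4%), under cantharidin 6 of 7 (31.9%) and under rpn-6 RNAi 7 of 7 (27.9%). With 10 µM bortezomib 5 of 7 were higher, where 9.61% of tested genes were, and with 25 µM 6 of 7 were higher, where 42.3% were. The 10 µM count is also the one that moved most with the processing, to 2 of 7 with median-of-ratios scaling. sqst-1 and bec-1 were the 2 that remained. The median change of the 7 genes was 1.15 in starvation, 1.03 under fluphenazine, 0.84 under cantharidin, 0.74 under rpn-6 RNAi, 0.41 with 10 µM and 0.77 with 25 µM bortezomib. The median of all tested genes was itself above 0, between 0.16 with 10 µM and 0.40 with 25 µM bortezomib. A change as small as those of atg-9 and atg-18 is therefore close to that shift, while those of sqst-1 are several times as large. All 6 comparisons share the same 3 controls.

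**Figure D3:**
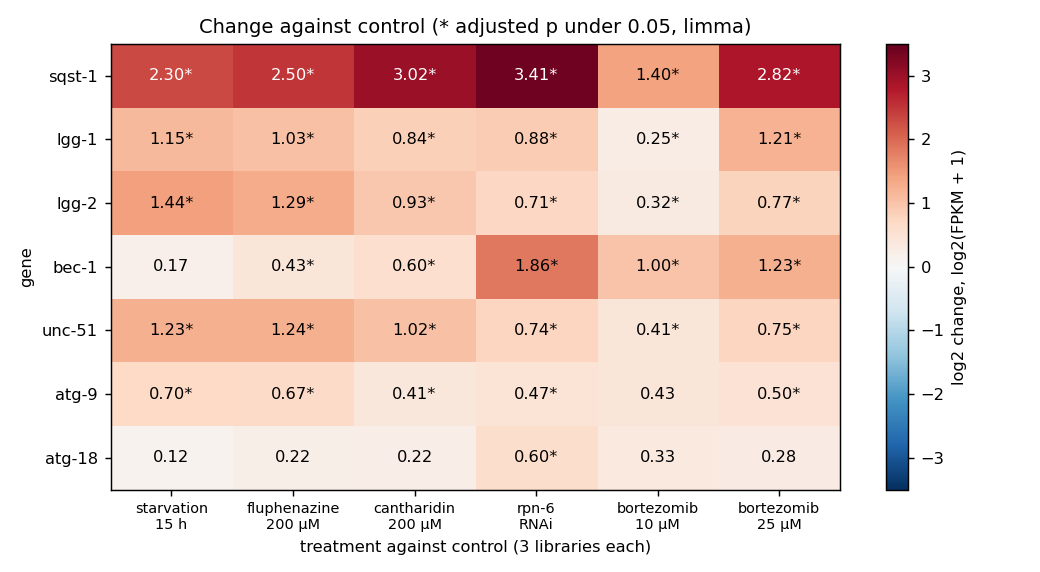
Change of each of the 7 genes (rows) against control in each treatment (columns), as colour on the log2(FPKM + 1) scale with the value printed in the cell; a star marks an adjusted p below 0.05. sqst-1 has the largest value in every column, from 1.40 to 3.41, and the atg-18 row has 1 star.

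Direct tests between treatments gave differences in both directions, and the split of the genes by direction was not the same in every pair. From starvation to rpn-6 RNAi 6 of 7 genes differed (50.7% of all tested genes), 3 being higher (28.9%) and 3 lower (21.8%). The higher ones were bec-1, sqst-1 by 1.11 ± 0.17 (adjusted p = 4.88e-05) and atg-18 by 0.49 ± 0.13 (adjusted p = 0.00501). The lower ones were lgg-2, unc-51, which fell by 0.49 ± 0.09 (adjusted p = 0.00019), and lgg-1, which fell by 0.26 ± 0.08 (adjusted p = 0.0087) but by 0.03 after quantile normalization (adjusted p = 0.812). Fluphenazine and starvation differed in 0 of 7 genes, while 6.29% of all tested genes differed between them. At an unadjusted p below 0.05 from limma, 0 of the 7 passed there as well. The 95% intervals of those differences ran from −0.15 to 0.55 for sqst-1, from −0.31 to 0.01 for lgg-2 and from −0.17 to 0.19 for unc-51.

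Cantharidin differed from starvation in 4 of the 7 genes (24.6% of all tested genes). It had more sqst-1, by 0.72 ± 0.17 (adjusted p = 0.00464), and less lgg-2, which was at a difference of −0.51 ± 0.07 (adjusted p = 0.000125). In all, 2 of 7 genes were higher (14.3% of all tested genes) and 2 lower (10.3%). The other 2 calls, bec-1 higher at 0.42 ± 0.14 (adjusted p = 0.0316) and lgg-1 lower at −0.30 ± 0.08 (adjusted p = 0.00793), were each lost under at least 1 of the 2 other scalings, the former also without any of 5 of the 6 libraries. Against rpn-6 RNAi, cantharidin did not pass the test for sqst-1, with RNAi higher by 0.38 ± 0.17 (95% interval 0.03 to 0.73, adjusted p = 0.102), and had less bec-1, with RNAi higher by 1.26 ± 0.14 (adjusted p = 1.92e-06).

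The step in bortezomib from 10 µM to 25 µM raised 4 of 7 genes, where 27.2% of all tested genes were higher and 39.6% differed in either direction. sqst-1 rose by 1.42 ± 0.17 (adjusted p = 6.57e-06), lgg-1 by 0.96 ± 0.08 (adjusted p = 8.33e-08), lgg-2 by 0.45 ± 0.07 (adjusted p = 0.000211) and unc-51 by 0.34 ± 0.09 (adjusted p = 0.00501). The unc-51 step shrank to 0.18 (adjusted p = 0.145) with median-of-ratios scaling. bec-1 did not pass, at 0.23 ± 0.14 with a 95% interval of −0.06 to 0.52 (adjusted p = 0.181). Of the rise that bec-1 showed at 25 µM, most was thus present at 10 µM, whereas lgg-1 had most of its rise in the upper step. atg-9 at 0.07 (95% interval −0.24 to 0.37) and atg-18 at −0.05 (95% interval −0.32 to 0.22) were not called.

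The 2 ways of impairing the proteasome, drug and RNAi, can be set side by side, though their durations differed. From rpn-6 RNAi to 25 µM bortezomib, 2 of 7 genes were lower (8.01% of all tested genes) and 1 higher (14.1%), with 22.1% of all tested genes differing. bec-1 fell by 0.62 ± 0.14 (adjusted p = 0.00479) and sqst-1 fell by 0.58 ± 0.17 (adjusted p = 0.0221), a call that was lost when any of 4 of the 6 libraries was left out. lgg-1 was higher with the drug by 0.32 ± 0.08 (adjusted p = 0.00759), but by 0.16 with quantile normalization (adjusted p = 0.243). lgg-2 and unc-51 differed by 0.05 (95% interval −0.11 to 0.21) and 0.02 (95% interval −0.17 to 0.20) and were not called.

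The remaining pairs of treatments gave the following counts. The lower bortezomib dose differed from each of the other treatments in 5 of 7 genes: from starvation, where 55.8% of all tested genes differed, from fluphenazine (43.3%), from cantharidin (27%) and from rpn-6 RNAi (24.1%). Against starvation, fluphenazine and cantharidin it had more bec-1 and less sqst-1, lgg-1, lgg-2 and unc-51, and against rpn-6 RNAi it had less of all 5. The bec-1 call against cantharidin, however, was lost when any 1 of the 6 libraries was left out, with adjusted p from 0.0684 to 0.11. From starvation to 25 µM bortezomib 4 of 7 differed (31.3% of all tested genes), with more bec-1 and less lgg-2 and unc-51. The fourth, sqst-1, was higher by 0.53 ± 0.17 (adjusted p = 0.0232), a call lost without starvation 1, starvation 2 or 25 µM bortezomib 4 and under both other scalings. rpn-6 RNAi differed from fluphenazine in 5 of 7 genes (36.9%) and from cantharidin in 4 of 7 (27.5%). Against cantharidin bec-1 kept its call with any 1 library left out, but the calls of lgg-2, unc-51 and atg-18 were lost without any of 3, 4 and 5 of the 6 libraries, and that of atg-18 against fluphenazine without any of 4. The larger dose of bortezomib differed from fluphenazine in 3 of 7 (23.8%) and from cantharidin in 3 of 7 (20.6%), of which the unc-51 call was lost without any of 4 of the 6 libraries, and cantharidin from fluphenazine in 1 of 7, lgg-2 (7.74%).

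The mRNA of sqst-1 was also set against that of each of the 6 machinery genes within a library. Such ratios of FPKM do not depend on a library's scaling factor, and they are given without a test. In the controls lgg-1 mRNA was 15.2 to 30.6 times as abundant as sqst-1 mRNA, and under rpn-6 RNAi 3.37 to 4.05 times. The mean log2 ratio of sqst-1 to lgg-1 was −4.46 ± 0.51 (SD, n = 3) in the controls, −3.27 ± 0.04 with 10 µM bortezomib and −3.25 ± 0.34 in starvation. It was −2.93 ± 0.27 under fluphenazine, −2.79 ± 0.06 with 25 µM bortezomib, −2.22 ± 0.20 under cantharidin and −1.88 ± 0.13 under rpn-6 RNAi. All treated libraries lay above all controls in this ratio.

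The ratio to lgg-2 changed sign in 1 group: sqst-1 was the more abundant of the pair only under rpn-6 RNAi, at a mean log2 ratio of 0.34 ± 0.12, against −2.41 ± 0.44 in the controls. The ratio to bec-1 had another order, from −0.64 ± 0.59 in the controls and −0.22 ± 0.04 with 10 µM bortezomib to 0.94 ± 0.13 under rpn-6 RNAi, 0.98 ± 0.03 with 25 µM bortezomib, 1.47 ± 0.36 under fluphenazine, 1.53 ± 0.17 in starvation and 1.83 ± 0.17 under cantharidin. The 10 µM bortezomib libraries, where bec-1 rose by 1.00 and sqst-1 by 1.40, lay within the range of the controls, between −0.27 and −0.20. Relative to bec-1, sqst-1 was thus highest under cantharidin, while relative to unc-51 it was highest under rpn-6 RNAi, at 2.86 ± 0.19 against 0.17 ± 0.23 in the controls.

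**Figure D4:**
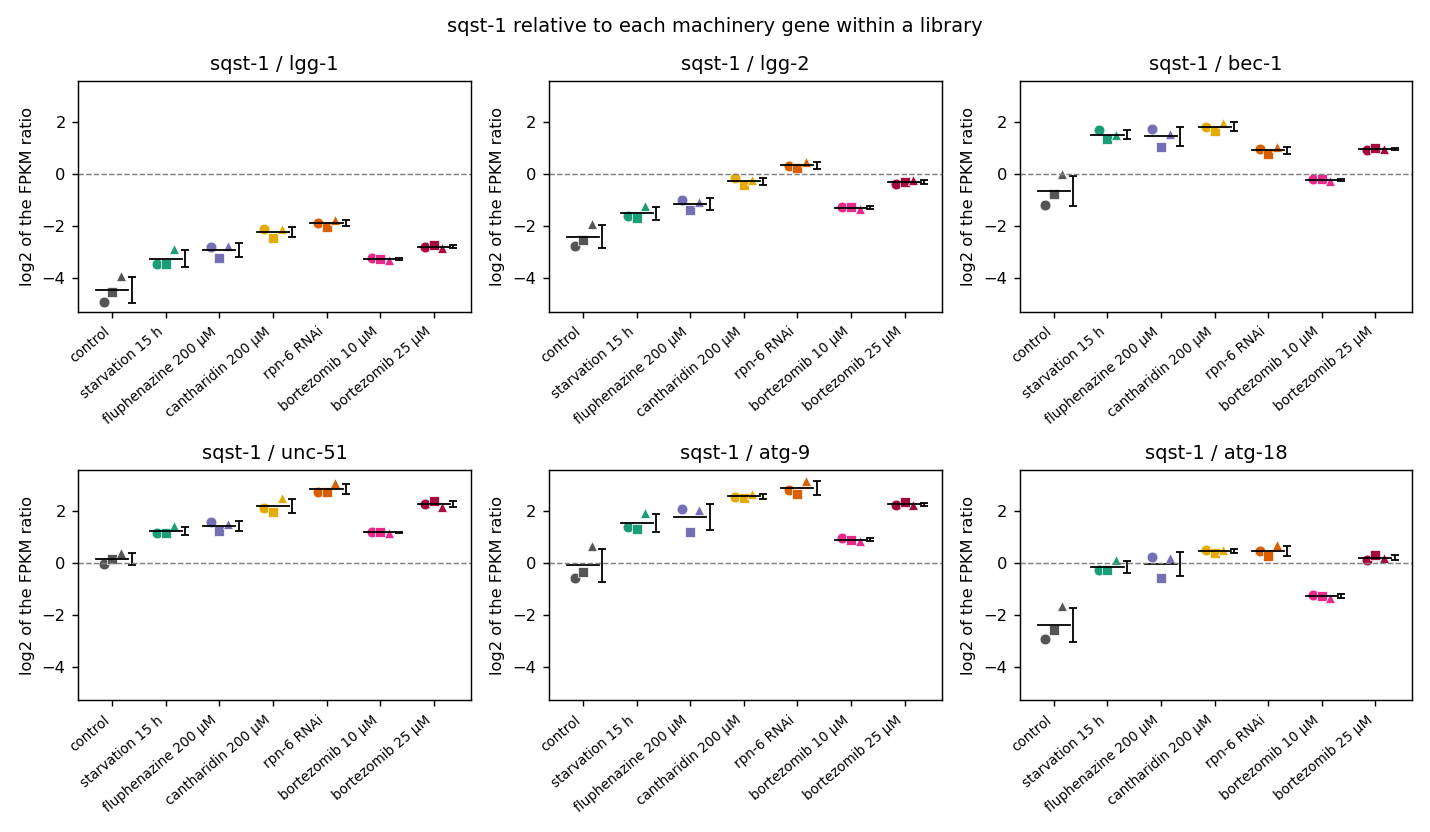
Log2 ratio of the FPKM of sqst-1 to that of each machinery gene (y axes, 1 panel per gene) in each library by group (x axis); points are libraries, horizontal lines the group mean and brackets ±1 SD, n = 3, and the dashed line at 0 marks equal FPKM. Against lgg-1 every treated library lies above the controls; against lgg-2 only the rpn-6 RNAi libraries lie above 0.

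Correlations across the 21 libraries are given as a description, since the libraries share groups and controls. On the log2 scale lgg-2 and unc-51 had a Pearson r of 0.95, lgg-1 and lgg-2 0.86 and lgg-1 and unc-51 0.83, while bec-1 and atg-18 had 0.84. Of bec-1 with the first 3 the values were 0.27 for lgg-1, −0.07 for lgg-2 and −0.01 for unc-51, and of atg-18 with them 0.28, 0.08 and 0.05. atg-9 had 0.74 with lgg-1, 0.77 with lgg-2 and 0.69 with unc-51, but also 0.51 with atg-18 and 0.21 with bec-1. sqst-1 had 0.80 with lgg-1, 0.73 with unc-51, 0.65 with lgg-2, 0.59 with bec-1, 0.52 with atg-9 and 0.49 with atg-18.

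Among 13682 named genes with a mean of at least 5 FPKM in at least 1 group, the 6 whose levels were most like those of sqst-1 over the 21 libraries were sod-4, R06C1.6, nape-1, skr-3, igeg-1 and F56D2.5. Their Pearson r with sqst-1 ran from 0.939 to 0.953 and their Spearman rho from 0.869 for nape-1 to 0.956 for skr-3. sod-4 encodes an extracellular copper/zinc superoxide dismutase and skr-3 a relative of the ubiquitin ligase component Skp1. None of the other 6 autophagy genes was among them.

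The wider pathway was represented by 47 autophagy genes in 7 roles, the 7 genes included, all of which were tested. Under rpn-6 RNAi 33 were called higher and 1 lower, or 72.3% in either direction, where 36.7% of all tested genes were called. With 10 µM bortezomib 15 were higher and 0 lower by limma (30 and 1 at an unadjusted p below 0.05), or 31.9%, against 12.9% of all tested genes. In starvation 23 were higher and 3 lower (55.3% against 57.5%), and the 48.9% called higher stood beside 39.1% of all tested genes. The counts were 25 and 1 under fluphenazine (55.3% against 43.8%, higher alone 53.2% against 34.4%), 21 and 0 under cantharidin (44.7% against 37.9%, higher alone 44.7% against 31.9%, with 24 and 1 at an unadjusted p below 0.05 by limma) and 26 and 1 with 25 µM bortezomib (57.4% against 53.4%, higher alone 55.3% against 42.3%). The median change of the 47 was 0.60 under rpn-6 RNAi, where the median of all genes was 0.31, and 0.28 in starvation, where it was 0.38. These splits depend on scaling: with median-of-ratios size factors they became 18 higher and 5 lower under rpn-6 RNAi, 13 and 11 in starvation, 12 and 7 under fluphenazine, 10 and 6 under cantharidin, 4 and 1 with 10 µM and 15 and 7 with 25 µM bortezomib. No share of all tested genes is given for these rescaled counts or for the rescaled counts by role below. The lower calls also depend on single libraries: without control 7, fluphenazine 4 and starvation 3 they became 13 in starvation, 14 under fluphenazine and 7 under cantharidin, with 21, 23 and 22 called higher.

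By role, the lipid kinase complex around bec-1 was called higher in 4 of 4 genes under rpn-6 RNAi, in 3 of 4 at each bortezomib dose, in 2 of 4 under fluphenazine and under cantharidin, and in 1 of 4 in starvation. Over all tested genes the share called higher was 27.9% under rpn-6 RNAi, 9.61% with 10 µM and 42.3% with 25 µM bortezomib, 34.4% under fluphenazine, 31.9% under cantharidin and 39.1% in starvation. With median-of-ratios scaling the complex had 3 of 4 higher under rpn-6 RNAi and with 25 µM bortezomib, 1 with 10 µM and in starvation, and 0 by limma under fluphenazine and cantharidin. Its subunit epg-8, the counterpart of Atg14, had the largest rise of the list under rpn-6 RNAi after sqst-1. It was at 49.8, 49.8 and 30.5 FPKM in the controls and at 165, 178 and 216 FPKM in the RNAi libraries, a rise of 2.10 ± 0.17 (adjusted p = 3.87e-08). Bortezomib gave 63.4 to 66.1 FPKM at 10 µM and, at 25 µM, 82.3 to 100.2 FPKM, and in starvation it stayed within the controls, at 40.2 to 45.4 FPKM. In group means, from rpn-6 RNAi through 25 µM and 10 µM bortezomib to control, epg-8 thus had the same order as bec-1. The epg-8 call at 10 µM against control was lost without any of 4 of the 6 libraries and under both other scalings. Its call between the doses was lost without any of 5 of the 6, and the bec-1 step between the doses was not called. Of the UNC-51 kinase complex 4 of 4 were higher under fluphenazine and cantharidin and 3 of 4 in each other treatment, but with median-of-ratios scaling 2 in starvation, under fluphenazine and under cantharidin, 1 under rpn-6 RNAi and with 25 µM bortezomib and 0 with 10 µM. Of 11 LGG and conjugation genes 9 were higher under rpn-6 RNAi, 6 with 25 µM bortezomib, 5 in starvation and under fluphenazine, 4 under cantharidin and 2 with 10 µM bortezomib. The counts of that role became 5 under rpn-6 RNAi, 3 with 25 µM bortezomib, in starvation and under fluphenazine, 2 under cantharidin and 0 with 10 µM bortezomib under median-of-ratios scaling, and the 45.5% in starvation and 36.4% under cantharidin of the main counts lie near those of all tested genes.

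Beside sqst-1 among the cargo receptors, dct-1, a mitophagy receptor related to BNIP3, was also called higher in all 6 treatments. Its mean was 14.7 ± 3.43 FPKM in the controls (SD, n = 3), 73.3 ± 8.88 in starvation, 74.9 ± 4.96 under fluphenazine and 45.5 ± 1.96 under cantharidin. It was 37.3 ± 5.83 under rpn-6 RNAi, 26.7 ± 1.75 with 10 µM, where quantile normalization lost the call (adjusted p = 0.0854), and 35.9 ± 4.85 with 25 µM bortezomib. dct-1 was thus highest where lgg-2 and unc-51 were, while sqst-1 was highest under rpn-6 RNAi. atg-2, which transfers lipid to the growing membrane together with ATG-18 and ATG-9, rose from 5.59 ± 0.927 FPKM to between 8.74 and 19.8 FPKM in the means of the 6 treatments, all called. Its call with 10 µM bortezomib was lost without any of 5 of the 6 libraries and under both other scalings, and quantile normalization also lost those under cantharidin (adjusted p = 0.129) and with 25 µM bortezomib (adjusted p = 0.0733). epg-2 and sepa-1, adaptors of embryonic protein aggregates, differed from sqst-1: epg-2 passed in 0 of the 6 treatments by limma, and in 1 at an unadjusted p below 0.05, while sepa-1 was called lower in starvation, at −2.38 ± 0.87 (adjusted p = 0.0293), a call lost when any of 5 of the 6 libraries was left out. With 25 µM bortezomib sepa-1 just missed the threshold at −2.09 ± 0.87 (adjusted p = 0.0535) and passed it under median-of-ratios (adjusted p = 0.0379) and quantile scaling (adjusted p = 0.0265). The controls were split, at 9.79, 10.8 and 0.207 FPKM. Control 7, the low one, lay within the range with 25 µM bortezomib, 0.137 to 0.461 FPKM, and above that in starvation, 0 to 0.068 FPKM.

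hlh-30, the counterpart of the lysosome and autophagy transcription factor TFEB, was at 38.1, 38.6 and 46.6 FPKM in the controls. It was at 136, 140.4 and 160.4 FPKM in starvation, 94.7, 96.7 and 109.9 FPKM under fluphenazine and 80.4, 88.8 and 103 FPKM under cantharidin. It was at 42.7, 43.7 and 44.9 FPKM under rpn-6 RNAi, within the range of the controls, where sqst-1 was at its highest. The change of hlh-30 was 1.80 ± 0.10 in starvation (adjusted p = 2.06e-09) and 0.09 ± 0.10 under rpn-6 RNAi (adjusted p = 0.51), and the difference between those treatments was −1.71 (adjusted p = 9.36e-10). Under rpn-6 RNAi the value turned to −0.18 with quantile normalization (adjusted p = 0.292) and to −0.27 with median-of-ratios scaling, where it was called lower (adjusted p = 0.0438). It was 1.27 ± 0.10 under fluphenazine (adjusted p = 9.87e-08), 1.12 ± 0.10 under cantharidin (adjusted p = 3.92e-07), 0.81 ± 0.10 with 25 µM bortezomib (adjusted p = 6.22e-06) and 0.09 with 10 µM (adjusted p = 0.613). mxl-3, a repressor that opposes HLH-30 in fed worms, was lower, with changes in starvation of −2.05 ± 0.55 (adjusted p = 0.00558) and under fluphenazine of −2.69 ± 0.55 (adjusted p = 0.00117). pha-4, a forkhead factor of pharynx and gut, was among the 3 largest rises outside the 7 genes under fluphenazine at 1.46 ± 0.19, cantharidin at 1.50 ± 0.19 and 25 µM bortezomib at 1.77 ± 0.19.

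Of the genes of the late steps, lmp-1, a lysosomal membrane protein, was called higher in starvation at 0.71 ± 0.09 (adjusted p = 1.03e-05) and under fluphenazine at 0.36 ± 0.09 (adjusted p = 0.00486), the latter becoming −0.04 with median-of-ratios scaling. Its relative lmp-2 was lower under rpn-6 RNAi, at −1.32 ± 0.19 (adjusted p = 3.47e-05). The lysosomal channel gene cup-5 was lower in starvation, at −1.14 ± 0.25 (adjusted p = 0.00134). epg-5, a tether for fusion with lysosomes, was called higher in all 6 treatments, by 0.33 to 0.81, but none of these calls held after quantile normalization, where the values were negative in 4 of them. atg-16.2, of the complex that attaches LGG proteins to membranes, was called higher in 5 of 6, by 0.54 to 0.87, and not with 10 µM bortezomib, and all 5 calls were lost under both other scalings.

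The genes of the V-ATPase, a proton pump that is not confined to the lysosome, did not move with the autophagosome genes. The lowest change was that of vha-6 under cantharidin (−4.87), rpn-6 RNAi (−2.22) and 25 µM bortezomib (−1.33). The highest in these were vha-5 (0.26), vha-18 (0.30) and unc-32 (0.27), in that order. Of 21 V-ATPase genes 17 were called lower and 1 higher under rpn-6 RNAi, where 8.81% of all tested genes were lower, and their median change was −0.91. In starvation 16 were lower (18.4% of all tested genes, median −0.48), with 25 µM bortezomib 16 (11.1%, median −0.63) and under fluphenazine 10 (9.39%, median −0.24). With 10 µM bortezomib 6 were lower (3.24%, median −0.29) and under cantharidin 2 (5.96%, median −0.14). Higher calls were 1 with 25 µM bortezomib, 1 under cantharidin and 0 by limma in the remaining 3, where 0 in starvation, 1 under fluphenazine and 1 with 10 µM bortezomib passed an unadjusted p of 0.05. With median-of-ratios scaling 20 were lower in starvation, 18 each under fluphenazine, cantharidin and 25 µM bortezomib and 17 each under rpn-6 RNAi and 10 µM bortezomib. With quantile normalization 15 were lower in starvation, 17 each under rpn-6 RNAi and 25 µM bortezomib, 8 under fluphenazine, 3 with 10 µM bortezomib and 1 under cantharidin. The share of all tested genes called lower is not given for these rescaled counts. Of all genes called against control, 68% to 84.3% were higher in the main fit, depending on the treatment. That share was 38.2% to 53.2% after median-of-ratios scaling, while quantile normalization left 37.8% to 46.1%. Whether V-ATPase genes were lower more often than other genes in the rescaled fits was not tested. Under rpn-6 RNAi, where all 7 genes from sqst-1 to atg-18 were higher, most V-ATPase genes were thus lower. The intestinal markers lay between 0.37 and 2.71 below the control mean in starvation, between 0.92 and 2.49 below with 25 µM bortezomib and between 0.41 and 1.43 below under cantharidin, and their part was not tested.

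**Figure D5:**
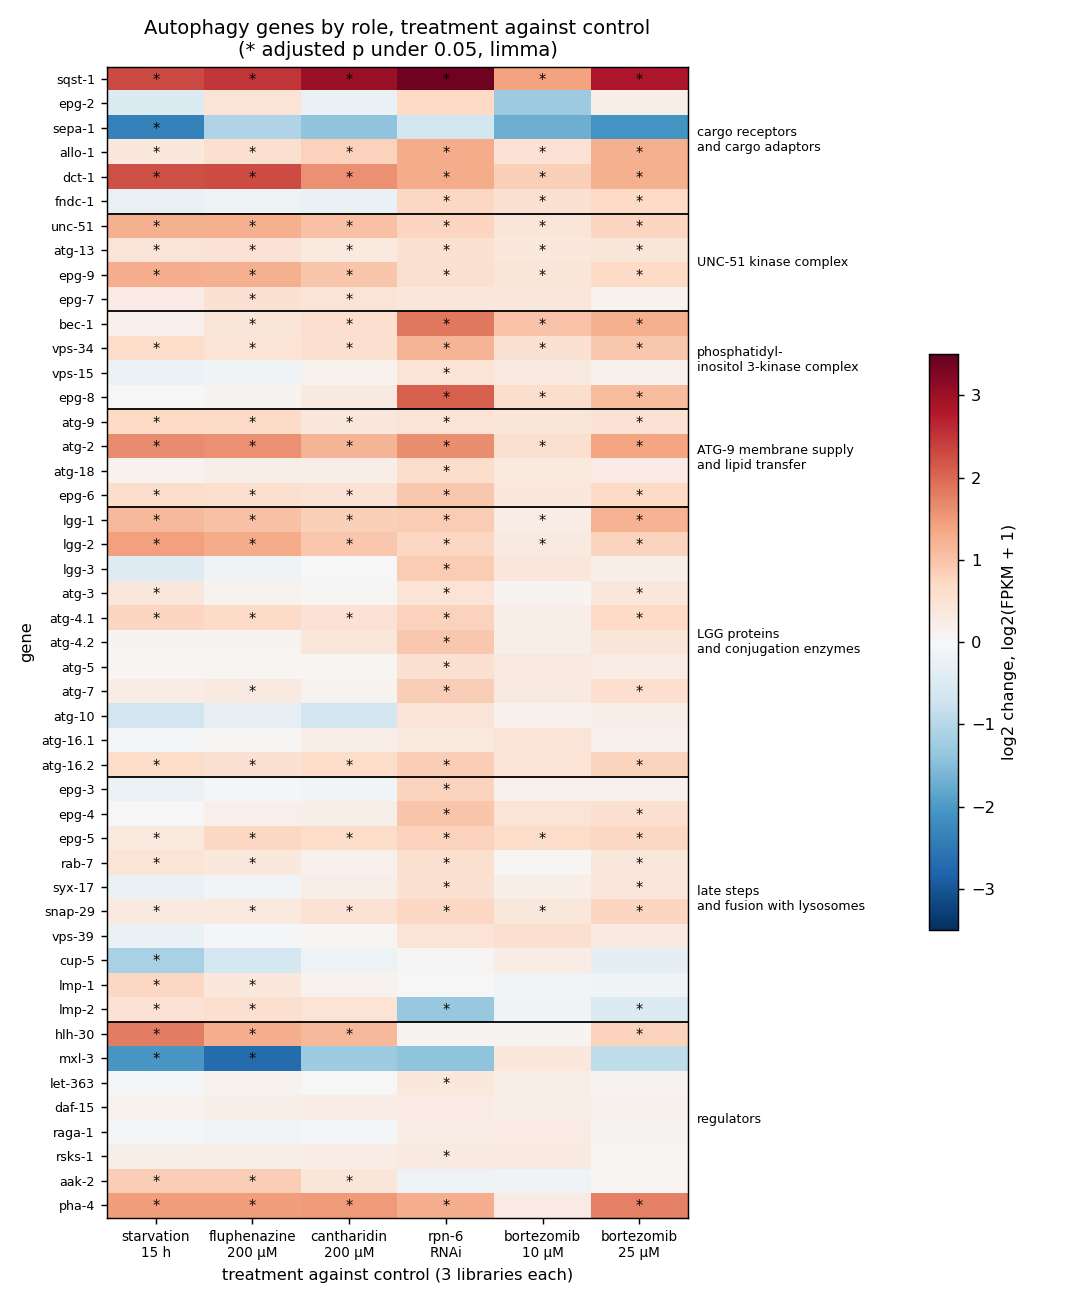
Change against control of the 47 autophagy genes (rows, grouped by role) in the 6 treatments (columns), as colour on the log2(FPKM + 1) scale; a star marks an adjusted p below 0.05. The rows of the lipid kinase complex are starred in all 4 genes under rpn-6 RNAi, and hlh-30 is raised in starvation, fluphenazine, cantharidin and 25 µM bortezomib but not called higher under rpn-6 RNAi, where its sign depends on the scaling.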

How the data were processed

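Whole-worm mRNA of 21 libraries, 3 in each of 7 groups, was read from 1 table of FPKM that the authors deposited. Per the labels' protocols, RNA was isolated with Trizol and RNeasy columns. Per the submitters' processing notes, CASAVA and Cufflinks were used, with no version or role named. Which aligner, build or filter was applied is not given in the sources used here, and coordinates are therefore left out. No column was left unused. No library identical to another was found. The total depth is unknown.

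Gene IDs were joined to WormBase names in a reference name table, which named 43200 of 46254. Values were tested as log2(FPKM + 1) with limma 3.58.1 (lmFit, then eBayes with a trend) in R 4.3.3. All 21 libraries entered 1 fit without covariates, with 14 residual degrees of freedom, 6 contrasts against control and 15 between treatments. P-values were adjusted by Benjamini-Hochberg over 17492 genes and called below 0.05. The fit was tested on simulated data.

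Other settings tried were 0.1 as pseudocount, a filter at 5 FPKM or none, median-of-ratios or quantile scaling, fits of only the groups compared, a replicate block, and leaving out each library. Leaving out control 7, fluphenazine 4 and starvation 3 together was added after seeing the data.

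The members and gene lists were chosen with earlier results of these data known. Of the autophagy list, the 3 largest called rises and falls per treatment were named, plus hlh-30, lmp-1, epg-2, sepa-1, atg-16.2 and epg-5. The genes most like sqst-1 were the 6 with the highest Pearson r. Of 56 tissue markers 55 were matched.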

Additional observations from a re-analysis of the deposited data

How the results depend on the processing

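For the 7 genes, 42 changes against control were recomputed under the other settings, which gave 560 values over all genes, comparisons and settings. In 513 the side of the threshold stayed the same, in 40 the call was lost and in 5 it was gained. In 2 the sign of a called change turned: lgg-1 with 10 µM bortezomib under median-of-ratios scaling (−0.023) and atg-9 with 25 µM under quantile normalization (−0.043). A sign that turned between uncalled values counts among the 513, as for atg-18 in starvation without control 7 (−0.063). All sqst-1 changes kept sign and call, and with 1 library left out they ran from 2.13 to 2.47 in starvation, 2.33 to 2.66 under fluphenazine, 2.86 to 3.19 under cantharidin, 3.24 to 3.57 under rpn-6 RNAi, 1.23 to 1.57 with 10 µM and 2.66 to 2.99 with 25 µM bortezomib. The count of the 7 genes called with 10 µM bortezomib was 2 under median-of-ratios scaling, 3 under quantile normalization, 2 with only both groups in the fit, and 3 to 6 with 1 library left out. The cause was not tested.

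Counts in the list of 47 under median-of-ratios scaling were 13 higher and 11 lower in starvation, 12 and 7 under fluphenazine, 10 and 6 under cantharidin, 18 and 5 under rpn-6 RNAi, 4 and 1 with 10 µM and 15 and 7 with 25 µM bortezomib. Under quantile normalization they were 7 lower in starvation, 2 lower under fluphenazine, 10 higher and 2 lower under cantharidin, 21 and 2 under rpn-6 RNAi, 4 higher with 10 µM and 16 and 6 with 25 µM. With only both groups in the fit they were 15 higher and 1 lower in starvation, 12 higher under fluphenazine, 2 lower under rpn-6 RNAi, 6 higher with 10 µM and 0 lower with 25 µM, and with no filter also 0 lower with 25 µM. Without control 7, fluphenazine 4 and starvation 3, an alternative chosen after seeing the data, lower calls were 13 in starvation, 14 under fluphenazine, 7 under cantharidin, 4 under rpn-6 RNAi, 2 with 10 µM and 4 with 25 µM. With 1 library left out, lower calls ran from 2 to 11 in starvation (11 without control 7), 1 to 5 under fluphenazine (5 without fluphenazine 4), 0 to 2 under cantharidin, 1 to 2 under rpn-6 RNAi, 0 to 2 with 10 µM and 0 to 1 with 25 µM, and higher calls from 7 to 17 with 10 µM (7 without bortezomib library 7).

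Control shares replicate numbers 4 and 6 with rpn-6 RNAi and with 25 µM bortezomib. The deviations of these same-numbered libraries from their group means correlated at −0.16 and −0.13 for the former and 0.05 and −0.26 for the latter. Control 4 and fluphenazine 4 gave 0.54. With 3 libraries per group, such deviations cannot decide whether a number stands for a shared batch. With the replicate block, 19 of the 47 were higher under rpn-6 RNAi and 0 lower with 25 µM, and calls over all genes went from 6425 to 4016 and from 9333 to 6877. No paired analysis was possible for the other treatments because they share fewer than 2 numbers with control. Without read totals, counting error at low levels is unknown, and 3 libraries per group limit the precision.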
